A study of Homo sapiens with 36 samples.

Results

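Atirmociclib, a CDK4-selective inhibitor, was given to LNCaP cells at 1 or 2 µM for 72 h, and the comparison described here sets the 3 libraries of the higher dose against the 3 of the lower. These are 6 of the 36 RNA sequencing libraries of the study, chosen by the agent, dose and time in their labels and not by any measured value. LNCaP is an established human prostate cancer line that responds to androgens. All groups shared this line and differed in agent, dose and time: atirmociclib at 1 and 2 µM for 24 h, AU2-94, another CDK4-selective inhibitor, at 1 and 2 µM for 24 and 72 h, ribociclib, which inhibits CDK4 and CDK6, at 2 µM, and vehicle. The labels also attach a dose of 2 µM to vehicle, which is used below as a level for reference only. Total RNA was measured, each group had 3 biological replicates, and the replicate number was recorded as a batch.

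CDK4 with a D-type cyclin phosphorylates RB, which releases E2F factors and lets a cell enter S phase, the phase in which replication-dependent histone genes are transcribed. Genes of mitosis follow later in the cycle and are held down in resting cells by the DREAM complex, which binds a short promoter element called the CHR. A separate kinase, CDK9 with cyclin T (P-TEFb), releases paused RNA polymerase II, and HEXIM1 holds P-TEFb inactive. Short-lived transcripts such as those of the ID, JUN and NF-κB feedback genes turn over within minutes to hours.

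The total of the deposited normalised counts, which are read counts scaled by the authors, was 22024631 to 22176824 in the 1 µM libraries and 22577368 to 22692555 in the 2 µM libraries. Mitochondrially encoded genes took 7.75% to 8.17% of it at 1 µM and 8.33% to 8.66% at 2 µM. In neither case did the ranges overlap, and in both the two-sided exact permutation test gave p = 0.1, the smallest that 3 against 3 libraries allow. Both values moved with the dose. A fit with library totals made equal, which left fewer genes higher, is given below. The part of the mitochondrial share in the results was not tested. Markers of the line were present. The 16 genes of luminal prostate identity summed to 221345 to 227881 normalised counts at 1 µM and 222861 to 230639 at 2 µM, and 2 of them, STEAP1 and KRT8, were called higher. The 20 basal and mesenchymal markers summed to 7235 to 8242 and 6394 to 6787, with KRT5, TP63, DCN and COL1A2 listed at 0 in all 6 libraries. Of the 10 tested, FN1 was called lower. Of 18 neuroendocrine and neuronal genes in the table, which summed to 2523 to 2695 and 2572 to 2654, 5 were tested and MAP2 was called higher. The 14 blood, vessel and immune genes summed to 809 to 853 and 681 to 700, with CD3E, KDR and CDH5 at 0, and none of the 5 tested was called. Over all genes, 1.25% were called higher and 0.936% lower. Of the 6 fits that left out 1 library, the call was kept in 5 for STEAP1 and in 3 for KRT8. It was kept in 2 for FN1 and in 1 for MAP2.

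At the doubled dose many histone genes, some genes of mitosis and HEXIM1 were lower still. ID genes and some genes of sterol and fatty acid synthesis and of the androgen response were higher than at 1 µM. For ID1, ID2 and ID3 this step led back towards vehicle, with means at 2 µM still below it. Means of HMGCS1 and FASN also lay below vehicle at 1 µM, while those of FDFT1 and ELOVL5 were already above it. Of 16341 genes tested, 205 were called higher at 2 µM (1.25%) and 153 lower (0.936%), 2.19% in either direction, a call being an adjusted p of at most 0.05 by limma. Most of these steps were small. The median size was 0.27 on the log2 scale among the genes called higher and 0.47 among those called lower, and 5 genes rose (0.0306%) and 10 fell (0.0612%) at least 2-fold, or 2 to 11 and 1 to 20 without 1 library. In all 205 of the former and in 152 of the latter the 2 groups of 3 libraries did not overlap. Such a separation was found for 13.1% of all genes in the upward and 9.45% in the downward direction. Calls were made on these same libraries, so the separation of called genes is not separate evidence. Genes called higher were mostly abundant: of the 3268 genes with the highest mean level (1480 normalised counts or more), 135 were called higher and 49 lower. The median step was 0.05 among these and -0.09 among the 3269 genes with the lowest (up to 34.7). Leaving out 1 library left fewer calls: 45 to 128 higher and 64 to 139 lower, with 45 and 64 without replicate 1 of 2 µM, 59 and 74 without replicate 1 of 1 µM, 86 and 88 without its replicate 2, 92 and 91 without its replicate 3, 115 and 115 without replicate 3 of 2 µM and 128 and 139 without its replicate 2. Of the 82 called genes that the naming rule picked, 29 were called without each library in turn: ACSL3, AMD1, CCNA2, CDKN2C, CYC1, DSC2, ELOVL5, FASN, FDFT1, GTSE1, GUSB, H1-5, H2BC13, H2BC17, H3C11, H4C3, HEXIM1, HMGB2, ID1, ID3, IQGAP2, LCP1, MC1R, MKI67, MYNN, NFKBIA, PMEPA1, RTF1 and TOP2A. The others lost their call without at least 1 library, 49 of them without replicate 1 of 2 µM and 45 without replicate 1 of 1 µM. The balance between directions depended on the scaling. Called genes were 57.3% higher as deposited, 41.9% with quantile normalisation (85 higher and 118 lower), 31.0% with equal library totals (87 and 194), 47.2% without the trend of the variance on the level (93 and 104) and 71.1% once values were corrected for GC content and length (325 and 132).

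**Figure D1:**
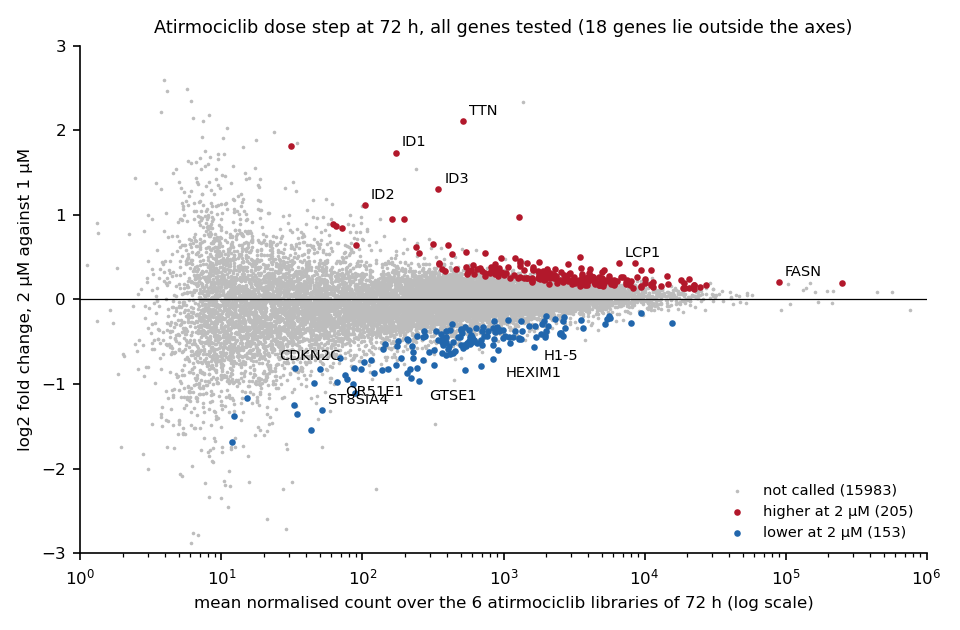
Each point is 1 of the 16341 genes tested, with its mean normalised count over the 6 libraries on a log axis and its log2 fold change between 2 and 1 µM of atirmociclib at 72 h. The 205 genes called higher and the 153 called lower stand out most where the level is high, and TTN, ID1, ID3 and ID2 lie farthest above zero among the labelled genes. There are 18 genes outside the axes.

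Replication-dependent histone genes, which supply the histones of newly made chromatin, were the group with the largest share of calls among the 26 gene lists examined. Of 48 tested, 30 (62.5%) were called lower and 0 higher, and 45 had a negative step. The median log2 fold change was -0.43, against 0.00 over all genes. Over all genes 0.936% were called lower and 1.25% higher, the reference for the list counts below. Every class took part, with 3 of 3 linker histone H1 genes, 8 of 14 H2A, 9 of 14 H2B, 6 of 9 H3 and 4 of 8 H4 genes lower. The count of 30 became 25 to 29 without 1 library. Over the 46 members with a vehicle mean of at least 50 normalised counts, the median level was 29.4% of vehicle at 1 µM and 19.4% at 2 µM. In bulk RNA, fewer cells making a transcript and less of it per cell cannot be told apart.

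H1-5 (chr6:27866792-27867588, minus strand, GRCh38), a linker histone gene, had the clearest step of the group. It was listed at 2020.2, 1908 and 1928 normalised counts at 1 µM and at 1224, 1318 and 1420.1 at 2 µM, with 10804, 11189.5 and 11465 under vehicle. All 3 libraries of the higher dose lay below all 3 of the lower (log2 fold change -0.57, SE 0.05, adjusted p = 2.97e-05). The core histone genes H3C11 (chr6:27871845-27872346) and H2BC17 (chr6:27893425-27893891) lie nearby. H3C11 was listed at 511, 542 and 543 and then at 323, 334 and 377 (log2 fold change -0.63, SE 0.07, adjusted p = 0.000309). H2BC17 was listed at 625, 682 and 631 and then at 404, 472 and 449.5 (log2 fold change -0.55, SE 0.08, adjusted p = 0.000976), where vehicle libraries held 3046, 3140.0 and 2791. The groups of both genes were apart. H2BC13 (-0.58) and H4C3 (-0.45) moved the same way, with adjusted p 0.000563 and 0.000936. H2BC21, a histone gene that is also expressed outside S phase, was listed at 4666, 4971 and 4829 and 5366, 4980.0 and 5093 and was not called (0.09).

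Some histone genes are near copies of one another, so their reads could be split. Of the 48, 12 held a stretch of at least 100 bases at 98% identity or more in another gene, and 23 of the other 36 were called lower. The pair H4C14 and H4C15 is identical over 1547 bases. H4C14, named here after its values were seen, was listed at 2518, 1306 and 3280.3 and at 8.63, 1319.8 and 13.6, and the groups overlapped despite a fitted step of -5.28. Summed with its copy it was listed at 3070, 3368 and 3314 at 1 µM and at 2432, 2212 and 2341 at 2 µM, a step of -0.48 (SE 0.08, adjusted p = 0.00412). H4C14 by itself was counted among the 30 histone genes called lower and the 10 genes at least 2-fold lower. With the pair summed, 9 genes were at least 2-fold lower. H4C12, a near copy of H4C11, was listed at 238, 345 and 438 and at 0, 0 and 53.9 and was not called (adjusted p = 0.126).

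**Figure D2:**
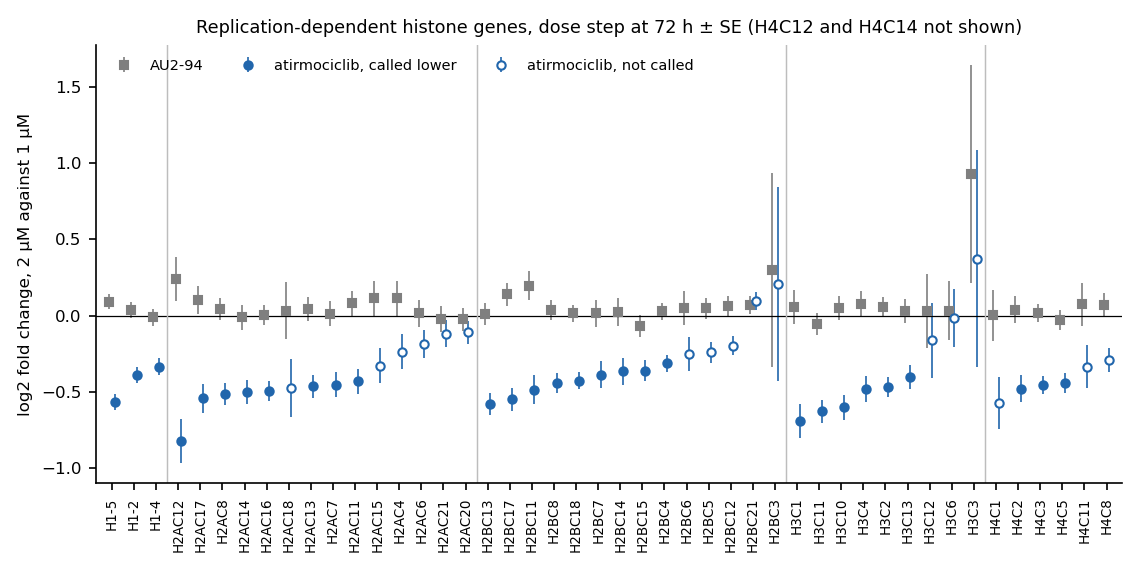
The log2 fold change between 2 and 1 µM at 72 h (± SE, 3 libraries a group) is given for each replication-dependent histone gene, grouped by class, for atirmociclib and for AU2-94. The 29 called genes drawn here lie below zero for atirmociclib, while the AU2-94 steps stay near zero for most genes. H4C12 and H4C14, which share sequence with copies, are not drawn.

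Genes of mitosis had the next largest share among lists with at least 10 members tested. Of 86 tested, 17 (19.8%) were called lower and 0 higher, 78 had a negative step, and the median was -0.22. Their median level was 45.7% of vehicle at 1 µM and 41.0% at 2 µM. The count of 17 became 8 without replicate 1 of 2 µM, 10 without replicate 1 or replicate 2 of 1 µM and 14 without each of the other libraries, and 7 to 19 under the other alternatives. GTSE1 (chr22:46296870-46330810), a microtubule-binding protein of late G2 and mitosis, had the largest step of the group. It was listed at 370.0, 379 and 460.1 normalised counts at 1 µM and 214, 229.6 and 262 at 2 µM, against 932, 953 and 909.7 under vehicle (log2 fold change -0.77, SE 0.10, adjusted p = 0.000563). CCNA2, which encodes cyclin A2, was listed at 459.9, 488 and 424 and then at 315, 314 and 338 (log2 fold change -0.50, SE 0.07, adjusted p = 0.000936). TOP2A, the topoisomerase that untangles sister chromatids, was listed at 1208, 1373 and 1355 and then at 795, 941 and 1038 (log2 fold change -0.51, SE 0.08, adjusted p = 0.00252). MKI67, the proliferation marker Ki-67, was listed at 3154, 2993 and 2991 and then at 2372, 2231 and 2626 (log2 fold change -0.34, SE 0.06, adjusted p = 0.00329). In each of these the higher dose lay wholly below the lower.

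Other genes of mitosis were not called. FOXM1, a transcription factor that drives many of them, was listed at 1415, 1366 and 1391 at 1 µM and 1307, 1391 and 1484 at 2 µM, a step of 0.00 with a 95% interval of -0.11 to 0.11, and vehicle was at 3664, 3559.9 and 3608. CCNB1, which encodes cyclin B1, was listed at 1535, 1710.3 and 1531 and 1570.3, 1729 and 1537 (step 0.02, interval -0.11 to 0.15). CDK1, its kinase partner, was listed at 1572, 1586 and 1401 and 1522, 1500.1 and 1458 (step -0.02, interval -0.17 to 0.12). For all 3 the groups overlapped and no call was made. CCNB2, the second B-type cyclin, was called lower: 776, 787 and 829 at 1 µM and 605, 682 and 630.3 at 2 µM (log2 fold change -0.32, SE 0.06, adjusted p = 0.0116). The 65 genes of DNA replication and nucleotide supply had 0 calls in either direction by limma and a median of -0.04, with 10 of them at an unadjusted p under 0.05.

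**Figure D3:**
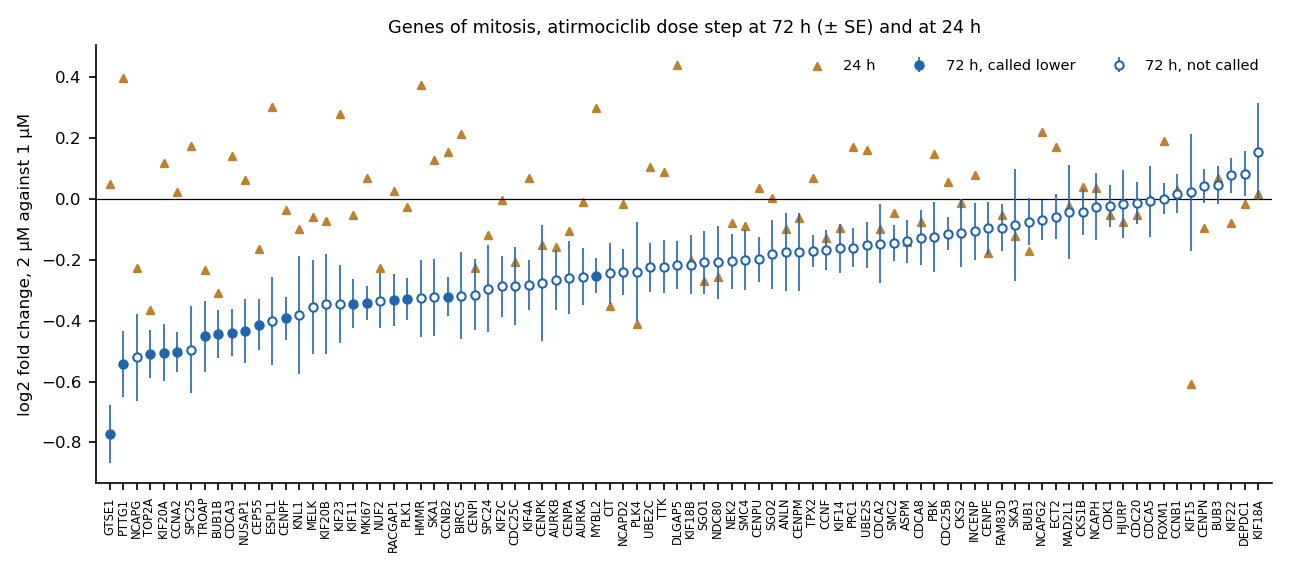
The 86 genes of mitosis are ordered by their atirmociclib dose step at 72 h (circles, log2 fold change ± SE, filled where called), with the step at 24 h as triangles. The called genes lie at the lower left from GTSE1 onwards, FOXM1, CCNB1 and CDK1 lie near zero, and the 24 h steps fall on both sides of zero.

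The promoters of the members that moved together are shown for the elements they hold. RefSeq sequences of 250 bases before the transcription start were matched for 11643 of the tested genes (assembly GRCh38.p14), and were searched on both strands for the CHR (TTTGAA), an E2F site (TTTNGCGC) and the CCAAT box (CCAAT). Each motif was searched on its own, so that a window can hold several and matches of different motifs may overlap. Capitals mark a match on either strand. GTSE1 (chr22:46296620-46296869, plus strand), CCNB2 (chr15:59104896-59105145, plus strand), H1-5 (chr6:27867589-27867838, minus strand) and H2BC17 (chr6:27893175-27893424, plus strand) read as follows.
GTSE1: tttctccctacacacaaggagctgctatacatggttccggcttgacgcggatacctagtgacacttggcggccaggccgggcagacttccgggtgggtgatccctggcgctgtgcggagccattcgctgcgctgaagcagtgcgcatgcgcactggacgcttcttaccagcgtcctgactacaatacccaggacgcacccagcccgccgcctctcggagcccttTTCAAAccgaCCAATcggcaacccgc
CCNB2: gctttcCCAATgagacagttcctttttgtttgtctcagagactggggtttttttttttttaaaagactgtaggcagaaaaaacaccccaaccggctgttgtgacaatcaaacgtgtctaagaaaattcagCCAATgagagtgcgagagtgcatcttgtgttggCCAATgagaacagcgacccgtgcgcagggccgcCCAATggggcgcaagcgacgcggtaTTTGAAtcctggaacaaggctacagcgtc
H1-5: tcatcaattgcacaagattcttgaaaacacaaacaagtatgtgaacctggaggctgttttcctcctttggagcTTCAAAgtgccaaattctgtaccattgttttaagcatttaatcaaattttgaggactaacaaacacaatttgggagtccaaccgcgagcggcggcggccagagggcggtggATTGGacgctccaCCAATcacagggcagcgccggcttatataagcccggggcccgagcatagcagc
H2BC17: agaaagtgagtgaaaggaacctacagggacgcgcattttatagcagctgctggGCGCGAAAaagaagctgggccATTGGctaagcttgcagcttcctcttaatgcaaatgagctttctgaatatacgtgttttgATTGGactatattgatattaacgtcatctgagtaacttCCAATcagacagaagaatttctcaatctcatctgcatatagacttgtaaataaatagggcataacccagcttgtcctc
The CHR was found in 8.49% of all these promoters, in 19.8% of 126 of the genes called lower and in 8.28% of 169 of those called higher. It was in 8 of 15 promoters of mitosis genes called lower (53.3%) and in 47.2% of all 72 promoters of tested mitosis genes, so the share was near that of the whole list. Among histone promoters, 25.9% of those called lower and 32.6% of all 43 held the CHR. CCAAT boxes were in 35.4% of all promoters, in 46.8% of genes called lower and in 45.0% of those called higher. They were in 24 of 27 histone genes called lower (88.9%) and in 86.0% of all 43 histone promoters. The E2F site was in 2.54% of all, in 33.3% of the histone genes called lower and in 23.3% of all histone promoters. A sterol element (TCACNCCAC) was in 0.82% of all promoters and in 0 of 4 promoters of the sterol and fatty acid genes called higher. These matches are descriptions of the windows and were not tested.

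Within the axis that atirmociclib targets, 2 of 33 genes were called, both lower, and the median step was 0.00. CDKN2C, which encodes the CDK4 and CDK6 inhibitor p18, was listed at 95.6, 114 and 125 and then at 57.7, 73.0 and 57.9 (log2 fold change -0.81, SE 0.13, adjusted p = 0.0034). RBL1, which encodes the RB relative p107, was listed at 426, 397 and 345 and then at 288, 243 and 237 (log2 fold change -0.60, SE 0.12, adjusted p = 0.00998). Vehicle held 443, 373 and 446 of the former and 687, 589 and 683 of the latter. The targeted kinase gene itself was not called. CDK4 was listed at 2001, 2151 and 1983 and 2508, 2228 and 2125 (step 0.16), but 44.2% of its exon bases overlap TSPAN31 on the opposite strand. CCND1, encoding cyclin D1 (0.13), RB1 (-0.01), E2F1 (0.21) and the CDK inhibitor gene CDKN1A (0.14) were not called, at adjusted p of 0.173, 0.958, 0.152 and 0.222. CDK6 was barely expressed, at 21.2, 40.2 and 25.7 and 17.5, 15.7 and 26.8 normalised counts.

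HEXIM1 (chr17:45148475-45152099, plus strand), the inhibitor of P-TEFb, stepped down with each dose. Vehicle libraries held 1524, 1578 and 1431, the 1 µM libraries 1052, 1107 and 991 and the 2 µM libraries 637, 629 and 673, with no overlap between any groups. The dose step was -0.70 (SE 0.07, adjusted p = 2.97e-05). HEXIM2-AS1 overlaps 14.3% of its exon bases on the opposite strand. In the list of P-TEFb and transcription elongation, 3 of 38 genes were called lower and 0 higher, and the median was 0.04. RTF1, a subunit associated with the PAF1 elongation complex, was listed at 2806, 2799.8 and 3055 and then at 2140.0, 2197 and 2183 (log2 fold change -0.41, SE 0.06, adjusted p = 0.00229). POLR2A, the largest subunit of RNA polymerase II, was listed at 5964, 5771 and 5741 and then at 4766, 4832 and 5269 (log2 fold change -0.23, SE 0.05, adjusted p = 0.019), a call kept in 2 of the 6 fits that left out 1 library. CDK9 itself was listed at 1245, 1377 and 1344 and 1435, 1581 and 1546 and was not called (step 0.20, adjusted p = 0.126).

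Among 56 immediate early and short-lived transcripts, 7 were called higher and 2 lower (HEXIM1 and DUSP4), with a median of 0.04. The rises were led by the ID genes, which encode helix-loop-helix proteins that block other transcription factors of that class. ID1 (chr20:31605283-31606515) was listed at 61.6, 75.8 and 87.3 at 1 µM and 424, 196 and 186 at 2 µM, with 504, 540.1 and 529.5 under vehicle (log2 fold change 1.74, SE 0.30, adjusted p = 0.00453). ID3 was listed at 163, 212 and 205 and then at 709, 391 and 384, with 777, 798 and 811 under vehicle (log2 fold change 1.30, SE 0.20, adjusted p = 0.00252). Replicate 1 of the higher dose stood far above the other two for both genes. Without that library the steps were 1.35 for ID1 and 1.01 for ID3, and both calls were kept. ID2 was listed at 61.6, 73.0 and 57.5 and then at 168, 98.3 and 164 (log2 fold change 1.12, SE 0.22, adjusted p = 0.0123), and kept its call in 2 of the 6 fits that left out 1 library. Its vehicle mean was 238. Of the 7 members called higher, 3 to 6 were called higher without 1 library, 3 without replicate 1 of 1 µM and 4 without replicate 1 or replicate 3 of 2 µM, and 4 to 8 were called under the other alternatives.

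NFKBIA, which encodes the NF-κB inhibitor IκBα, was listed at 1146, 1072 and 1138 and then at 1652, 1474 and 1416 (log2 fold change 0.43, SE 0.07, adjusted p = 0.00329). TNFAIP3, a ubiquitin-editing inhibitor of NF-κB signalling, was listed at 39.3, 45.9 and 53.2 and then at 81.1, 93.9 and 78.0 (log2 fold change 0.86, SE 0.20, adjusted p = 0.0285). BIRC3, an inhibitor of apoptosis protein, was listed at 135, 125 and 139.5 and then at 287, 192 and 310.3 (log2 fold change 0.95, SE 0.23, adjusted p = 0.0413). It was the 1 member of 21 to be called in the list of the BCL2 family and other apoptosis genes. NKILA, an antisense RNA that overlaps PMEPA1 over 13.1% of its exon bases, was listed at 87.3, 164 and 90.9 and then at 211, 202 and 221 (log2 fold change 0.95, SE 0.21, adjusted p = 0.0261). Vehicle means were 1614 for NFKBIA, 58.5 for TNFAIP3, 68.7 for BIRC3 and 84.2 for NKILA. The calls of TNFAIP3, BIRC3 and NKILA were each kept in 1 of the 6 fits that left out 1 library. JUN, JUNB and RHOB were called higher too, JUN at 1423, 1417 and 1539 and then 1763, 1715 and 1751 (log2 fold change 0.26, SE 0.06, adjusted p = 0.0261). MYC (10723, 10371 and 11520.0, then 9827, 10128 and 10348, step -0.10, interval -0.206 to -0.00446) and MCL1 (4951, 4752 and 4692, then 5030.2, 5021 and 4664, step 0.03) were not called, at adjusted p of 0.291 and 0.837.

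**Figure D4:**
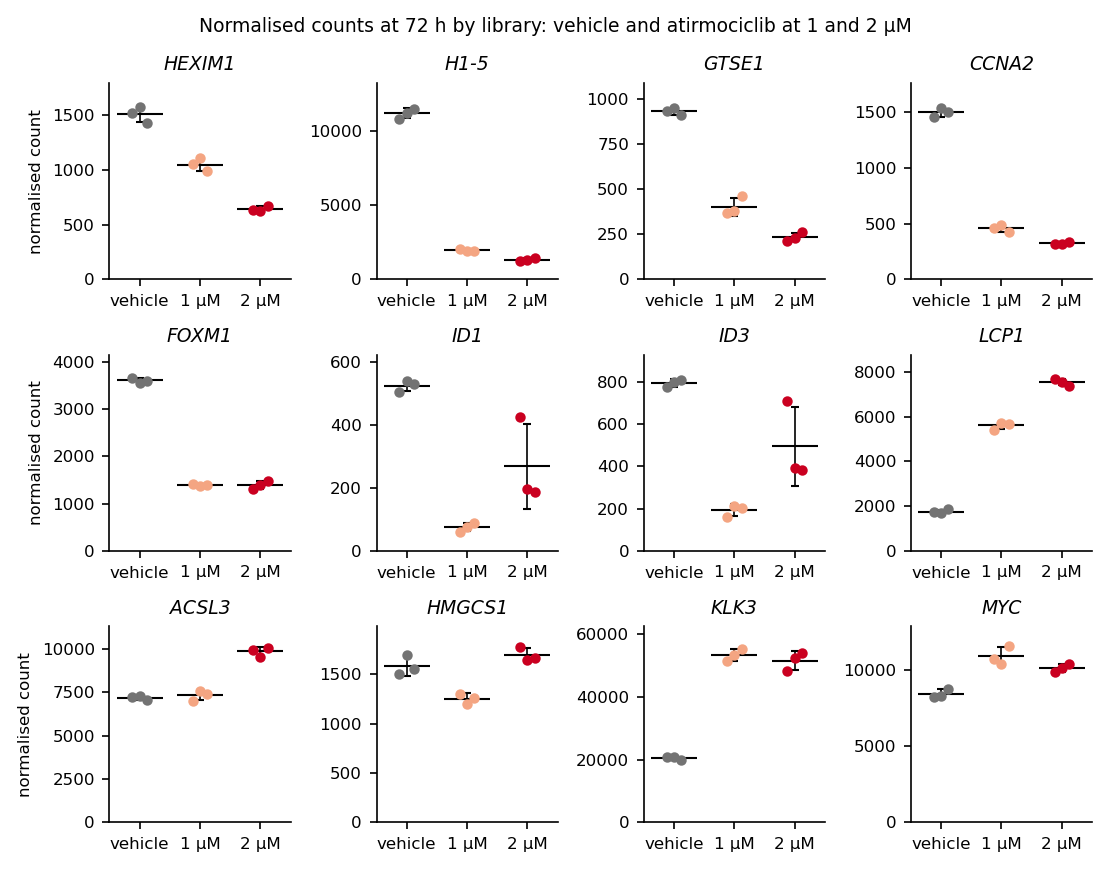
Normalised counts of 12 genes are plotted for each library of vehicle, 1 µM and 2 µM atirmociclib at 72 h, with the mean and SD of 3 libraries as bars and each axis starting at 0. HEXIM1, H1-5, GTSE1 and CCNA2 step down again at 2 µM, LCP1, ACSL3 and HMGCS1 step up, ID1 and ID3 rise with 1 library far above the others, and FOXM1, KLK3 and MYC overlap or nearly overlap between doses.

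Androgen-responsive genes were called higher in 9 of 62 cases and lower in 1, with a median of 0.09, but KLK3 and TMPRSS2 were not called. KLK3, which encodes prostate-specific antigen, was listed at 51497, 53405 and 55194 at 1 µM and 48388, 52456 and 54148 at 2 µM, with 20972, 20799 and 19802 under vehicle, and its step was -0.05 (interval -0.14 to 0.05). TMPRSS2 was listed at 19815, 19897 and 20397 and 18747, 20755 and 20223 (step -0.01, interval -0.15 to 0.13). Of the called members, 2 are enzymes of fatty acid metabolism. ACSL3, a long-chain acyl-CoA synthetase of the lipid droplet, was listed at 7019, 7582 and 7385 and then at 9957, 9539.8 and 10077 (log2 fold change 0.43, SE 0.05, adjusted p = 0.000325), against 7256, 7268 and 7052 under vehicle. ELOVL5, a fatty acid elongase, was listed at 12920.2, 13231 and 13083 and then at 16555, 15474 and 15694 (log2 fold change 0.28, SE 0.04, adjusted p = 0.00107). FKBP5, a co-chaperone of steroid receptors, was listed at 2713, 2957 and 3016 and then at 4693, 3647 and 3981 (log2 fold change 0.50, SE 0.10, adjusted p = 0.0112), and PMEPA1, a membrane inhibitor of TGF-β signalling, at 3667, 3750.3 and 3437 and then at 4850.3, 4594 and 4441 (log2 fold change 0.36, SE 0.05, adjusted p = 0.00167). Vehicle means were 3441 for FKBP5 and 2519 for PMEPA1. IQGAP2, a scaffold protein, fell from 931, 751 and 836 to 525, 572 and 636 (log2 fold change -0.54, SE 0.10, adjusted p = 0.00553). Leaving out 1 library gave 3 to 6 members called higher, with 3 without replicate 1 of either dose and 5 without replicate 2 or 3 of 1 µM or replicate 3 of 2 µM, and the other alternatives gave 4 to 10.

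Of 39 genes of sterol and fatty acid synthesis, 7 were called higher and 0 lower, with 30 positive and 9 negative steps and a median of 0.14. HMGCS1, the first committed enzyme of the mevalonate route, was listed at 1304, 1196 and 1263 and then at 1779, 1649 and 1663 (log2 fold change 0.44, SE 0.09, adjusted p = 0.0169), against 1504, 1697 and 1555 under vehicle, and 37.7% of its exon bases overlap a gene on the opposite strand. FDFT1, squalene synthase, was listed at 4334, 4479 and 4787 and then at 6015, 5549 and 5689 (log2 fold change 0.34, SE 0.06, adjusted p = 0.00423). FASN, fatty acid synthase, was listed at 81979.7, 82143 and 84138 and then at 96119, 93921 and 96740.5 (log2 fold change 0.21, SE 0.04, adjusted p = 0.00676), with vehicle at 89557, 97057 and 97449. LPIN1, a phosphatidate phosphatase, was also higher (log2 fold change 0.34, SE 0.06, adjusted p = 0.00842). The groups were apart in all 4. Without 1 library, 3 to 5 members were called, with 3 without replicate 1 of 2 µM and 4 without any 1 library of 1 µM. The other alternatives gave 2 to 9.

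Ribosome biogenesis genes and MYC targets had 5 of 69 called higher and 0 lower, with a median of 0.10. IMP4, a component of the small-subunit processome, was listed at 1441, 1568 and 1502 and then at 2184, 1837 and 2141 (log2 fold change 0.45, SE 0.09, adjusted p = 0.0156). Its vehicle mean was 1785. BOP1, SRM, NME1 and PA2G4 were the others, and 0 members were called without replicate 1 of either dose, 2 without replicate 2 of 1 µM and 3 without replicate 3 of either dose, and 2 to 9 under the other alternatives. Nuclear respiratory chain genes had 4 of 76 called higher (ATP5F1D, CYC1 and ATP5F1B among them) and a median of 0.09, and 1 to 4 were called without 1 library, 1 without replicate 1 of 2 µM and 2 without replicate 1 or 2 of 1 µM, and 2 to 7 under the other alternatives. That share of 5.26% stands beside 1.25% over all genes and 135 of the 3268 genes with the highest mean level. Of 13 mitochondrially encoded mRNAs, MT-ND4 was called, at 239092, 227107 and 233909 and then 260046, 267066 and 272238 (log2 fold change 0.19, SE 0.05, adjusted p = 0.0458), and its call was lost without each of the 6 libraries in turn and with library totals made equal. Cytosolic ribosomal proteins had 0 of 79 called by limma, 3 at an unadjusted p under 0.05, and a median of 0.04.

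**Figure D5:**
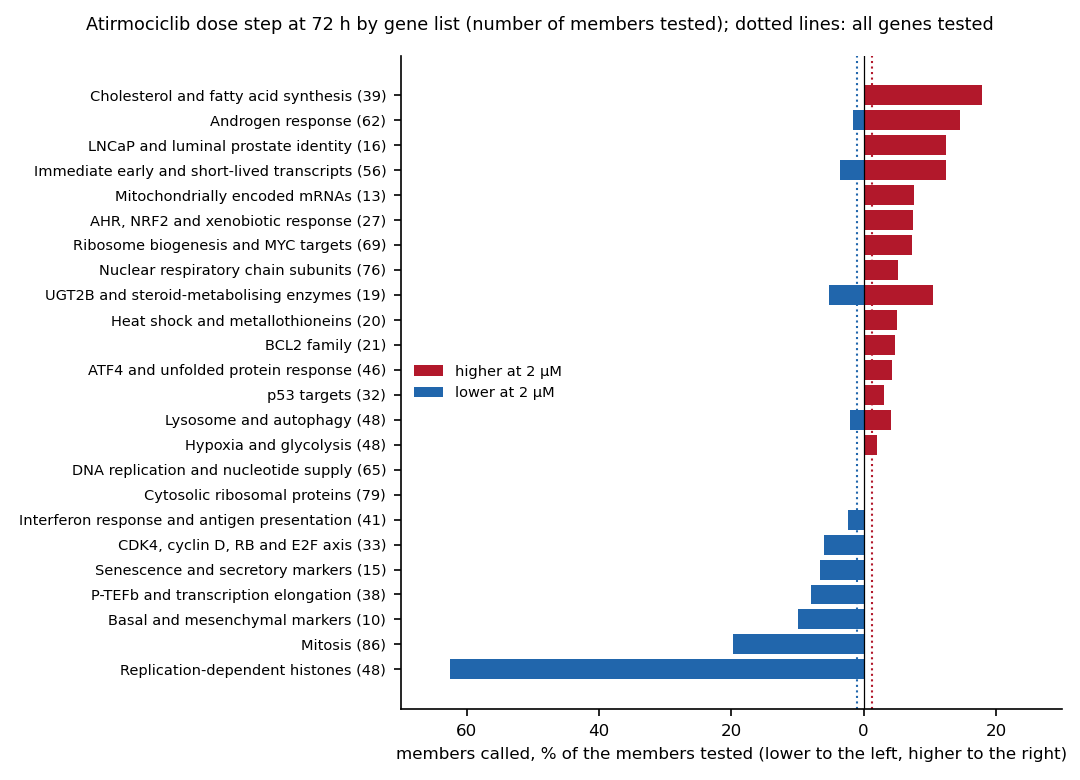
For each gene list with at least 10 members tested, bars give the share of members called higher (right) and lower (left) at 2 µM against 1 µM, with the number tested in brackets. Dotted lines mark the share over all genes, 1.25% higher and 0.936% lower, and the bar of 62.5% for histones and that of 19.8% for mitosis reach farthest to the left.

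The remaining lists held few calls, beside 1.25% higher and 0.936% lower over all genes. Upward calls were commoner among abundant genes, with 135 of the 3268 of highest mean level called higher, so the counts are given as values only. Enzymes that conjugate or oxidise steroids had 2 of 19 higher and 1 lower. UGT2B10 had a mean of 51.4 normalised counts (SD 6.97) at 1 µM and of 92.5 (SD 0.830) at 2 µM (log2 fold change 0.85, SE 0.21, adjusted p = 0.0449), UGT2B17 at 1518, 1631 and 1650.3 and then at 2007, 1870.1 and 1858 (log2 fold change 0.26, SE 0.06, adjusted p = 0.0358), and CYP3A5, a cytochrome of drug and steroid oxidation, fell from 153, 168 and 146 to 77.7, 91.1 and 85.3 (log2 fold change -0.87, SE 0.16, adjusted p = 0.00785). Vehicle means were 172 for UGT2B10, 3957 for UGT2B17 and 39.2 for CYP3A5. For each of these genes the 2 µM mean lay between those of 1 µM and vehicle. UGT2B10 shares a near-identical stretch with UGT2B11. The xenobiotic response had 2 of 27 higher (TXNRD1 and TALDO1), the unfolded protein response 2 of 46 (HSPA5 and DNAJC3), heat shock genes and metallothioneins 1 of 20 (CHORDC1), hypoxia and glycolysis 1 of 48 (ALDOA), and p53 targets 1 of 32 (TP53INP1). In the lists of steroid enzymes, the xenobiotic response and the unfolded protein response, 0 members were called higher by limma without any 1 library, and with all libraries 8, 8 and 13 members had an unadjusted p under 0.05. Lysosome and autophagy genes had 2 of 48 higher (LAMP1 and ATP6V0D1) and 1 lower (GUSB). Interferon response and antigen presentation had 1 of 41 lower (IFI6) and senescence markers 1 of 15 lower, HMGB2, a chromatin protein of dividing cells, listed at 892, 859 and 875 and then at 612, 698 and 722 (log2 fold change -0.37, SE 0.06, adjusted p = 0.00329). Of the 6 fits that left out 1 library, the call was kept in 0 for LAMP1 and in 1 for ALDOA, TP53INP1 and IFI6. It was kept in 2 for ATP6V0D1, in 3 for CHORDC1 and in all 6 for GUSB and HMGB2.

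Outside these lists, the following genes had the largest steps among called genes with a symbol, a mean of at least 50 normalised counts and groups that did not overlap. TTN, the giant muscle protein titin, was listed at 159.8, 137 and 236 and then at 936, 355 and 1256 (log2 fold change 2.10, SE 0.48, adjusted p = 0.0285), with wide spread at the higher dose, and kept its call in 2 of the 6 fits that left out 1 library. SOX8, a transcription factor, was listed at 307, 301 and 329 and then at 541, 488 and 445 (log2 fold change 0.65, SE 0.12, adjusted p = 0.00868). ZPLD1 (0.64), POTEJ (0.65) and MVP-DT (0.89) were called higher too, POTEJ being a near copy of other POTE genes. MAZ overlaps 38.0% of the exon bases of MVP-DT on the opposite strand, and had a mean of 9638.8 normalised counts over all libraries. Calls of ZPLD1 and POTEJ were each kept in 1 of the 6 fits that left out 1 library, and that of MVP-DT in 4. At a lower level, ENSG00000285907, named here after its values were seen, had a mean of 13.3 at 1 µM and of 48.7 at 2 µM (log2 fold change 1.82, adjusted p = 0.00875). Large falls were seen for OR51E1, an odorant receptor of the prostate, at 289, 247 and 267 and then 108, 177 and 162 (log2 fold change -0.87, SE 0.21, adjusted p = 0.0342), where vehicle held 4.79, 6.75 and 4.58. MC1R, the melanocortin receptor, was listed at 176, 169 and 178 and then at 114, 93.3 and 87.8 (log2 fold change -0.83, SE 0.12, adjusted p = 0.00157), and overlaps TCF25 on the same strand. ACACB, the mitochondrial acetyl-CoA carboxylase, was listed at 733, 658 and 636 and then at 380.4, 458 and 314 (log2 fold change -0.83, SE 0.17, adjusted p = 0.014). ST8SIA4 (-1.31), VASH1 (-1.10), MCF2L2 (-0.98), RIN2 (-0.96), DOK3 (-0.93), PLEKHG2 (-0.93) and AMN1 (-0.89) also fell, at adjusted p from 0.0153 to 0.0474. Of the 6 fits that left out 1 library, the call was kept in 0 for DOK3 and in 1 for ST8SIA4, RIN2 and OR51E1. It was kept in 2 for VASH1, MCF2L2, PLEKHG2 and AMN1, and in 3 for ACACB. C1R, a complement protease, fell from a mean of 114 normalised counts (SD 22.6) to 56.4 (SD 11.9), with adjusted p = 0.0364. Its call was kept in 2 of the 6 fits that left out 1 library. C1RL, on the same strand, overlaps 11.6% of its exon bases and had a mean of 1035.6 over all libraries.

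LCP1 (chr13:46125920-46211871, minus strand), which encodes the actin-bundling protein L-plastin, had the smallest adjusted p of the genes called higher. Vehicle libraries held 1734, 1683 and 1852, the 1 µM libraries 5414, 5736 and 5670.2 and the 2 µM libraries 7672, 7547 and 7390.2, with no overlap (log2 fold change 0.43, SE 0.04, adjusted p = 6.93e-05). The gene CPB2-AS1 overlaps 19.0% of its exon bases on the opposite strand.

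The step between the same doses was smaller in count elsewhere. At 24 h, 5 genes were called higher (0.0297%) and 8 lower (0.0475%) of 16850 tested between 2 and 1 µM of atirmociclib, HEXIM1 among the latter with a step of -0.48. That step was fitted with all 36 libraries, a fit in which 360 genes were higher and 186 lower at 72 h. For AU2-94 at 72 h, 0 genes were called in either direction by limma, with 732 at an unadjusted p under 0.05 and a smallest adjusted p of 0.996, against 2597 at an unadjusted p under 0.05 for atirmociclib. These counts do not test the difference, which was fitted directly in terms that share no library between the 2 steps.

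AU2-94 and atirmociclib were compared at the same doses and time, as 1 pair of compounds. The atirmociclib step exceeded that of AU2-94 in 6 genes (0.0367%) and lay below it in 27 (0.165%). The total of 33 was 2 without replicate 1 of 2 µM, 15, 5 and 9 without replicates 1, 2 and 3 of 1 µM, and 21 without replicate 2 or 3 of 2 µM, and it was 19 with the replicate block, 13 with GC content and length corrected and 3 without the trend. Those 27 included 14 of the 48 histone genes and 6 of the 86 genes of mitosis. For H1-5 the AU2-94 step was 0.09 (interval -0.02 to 0.20) and the difference -0.66 (SE 0.07, adjusted p = 0.00062). For HEXIM1 the AU2-94 step was 0.02 (interval -0.12 to 0.15) and the difference -0.71 (SE 0.09, adjusted p = 0.00374). For GTSE1 the AU2-94 step was 0.08 (interval -0.12 to 0.28) and the difference -0.85 (SE 0.14, adjusted p = 0.0227). CCNA2 (-0.58), MKI67 (-0.41) and CCNB2 (-0.48) also differed, at adjusted p of 0.0267, 0.0379 and 0.0324. LCP1 had an AU2-94 step of 0.00 (interval -0.09 to 0.09) and a difference of 0.43 (SE 0.06, adjusted p = 0.00991). Differences were not past the threshold for ID1 (1.44, adjusted p = 0.248), ID3 (1.02, adjusted p = 0.221), ACSL3 (0.31, adjusted p = 0.0959) or HMGCS1 (0.36, adjusted p = 0.384), and their AU2-94 steps were 0.30, 0.28, 0.12 and 0.07.

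Between times, the atirmociclib step at 72 h exceeded that at 24 h in 13 genes (0.0772%) and lay below it in 10 (0.0593%). Seeding density differed between these times as well, so time and density cannot be told apart. The total of 23 was 2, 26 and 10 without replicates 1, 2 and 3 of 2 µM and 5, 20 and 8 without those of 1 µM, and it was 15 with the replicate block, 9 with GC content and length corrected, 7 without a filter on low values and 14 without the trend. Of the androgen-responsive genes 4 of 62 were among the former. LCP1 changed most clearly, from a step of -0.09 at 24 h to 0.43 at 72 h (difference 0.52, SE 0.06, adjusted p = 4.48e-05). ACSL3 went from -0.02 to 0.43 (adjusted p = 0.0201), FKBP5 from -0.08 to 0.50 (adjusted p = 0.0338) and ID3 from 0.17 to 1.30 (adjusted p = 0.0438). PTTG1, the securin that restrains sister chromatid separation, went from 0.40 to -0.54 (difference -0.94, adjusted p = 0.00696), and MYBL2, a transcription factor of late S phase, from 0.30 to -0.25 (difference -0.55, adjusted p = 0.032). At 72 h PTTG1 was listed at 585, 552 and 638 and then at 411, 415 and 390.4, and MYBL2 at 962, 948 and 904 and then at 743, 838 and 783. For histones the difference between times was past the threshold in 1 of 49 genes tested (H2BC18), and their median steps were -0.13 at 24 h and -0.43 at 72 h. HEXIM1 was called at both times and its difference of -0.22 was not past the threshold (adjusted p = 0.458).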

How the data were processed

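Reads were run by the authors through nf-core/rnaseq, with alignment to GRCh38 by STAR 2.6.1d and with DESeq2. The file they deposited gives normalised counts of 29872 genes in 36 libraries. These deposited values are a scaled signal that approximates reads, and whole counts could not be recovered from them. How they were scaled in detail is not given in the sources used here. Count models were therefore not used, the depth of each library is known only as its normalised total, and precision is lowest for genes at few counts. A gene at or under 3 normalised counts was treated as being at the floor, which covers counting error only.

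Groups were taken from the labels. Genes with at least 10 normalised counts in at least 3 of the 18 libraries of 72 h entered the test. Values were taken as log2(normalised count + 1), that is, with a pseudocount of 1, and limma 3.58.1 (R 4.3.3; lmFit, then eBayes with a trend) was fitted with all 6 groups in 1 fit and Benjamini-Hochberg adjustment over all genes. Fold changes are on that scale, which understates changes of low genes. The step at 24 h and the difference between steps at 72 and 24 h used all 36 libraries and 12 groups. Seeding density differed between these times. Library totals were compared with a two-sided exact permutation test. The fits were tested on simulated data with known fold changes. P-values measure the spread between these libraries.

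Labels give the replicate number as a batch, which pairs libraries by number, and a fit with that block was run as an alternative. Deviations of libraries with the same number correlated at -0.043 to 0.016 (3 pairs) between the atirmociclib doses, and at -0.021 to 0.055 for other numbers (6 pairs). The fit without the replicate block was kept as the main one.

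The 26 gene lists, written from general knowledge, and the genes described were chosen with earlier results of these data known. Genes named were the 12 largest steps in each direction among called genes with a symbol, a mean of at least 50 and groups that did not overlap, up to 4 called members with the smallest p for each list and direction, fixed genes of the pathway, and the 3 clearest genes in each direction of each difference. Others are named as members of a small count, and CCNB2, JUN, JUNB, H2BC21 and the H4 copies were chosen after their values were seen. Positions and exon overlaps came from GENCODE release 44, near-identical stretches from BLAST 2.17.0 and promoters from RefSeq (GRCh38.p14). Alternatives covered the pseudocount, filter, scaling, trend, block, GC content and length, libraries fitted, and leaving out each library of the 2 doses. Summing H4C14 and H4C15 was chosen after seeing the data.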

Additional observations from a re-analysis of the deposited data

Results flagged for a closer look

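In 12 cases a dose step of atirmociclib at 72 h differed from another dose step by a direct test of the difference (limma, adjusted over all genes). Against AU2-94 at 72 h, the step of atirmociclib was higher by 0.43 for LCP1 (adjusted p = 0.00991), by 0.25 for AMD1, an enzyme of polyamine synthesis (adjusted p = 0.0324), and by 0.54 for MYNN, a zinc finger protein (adjusted p = 0.0344). It was lower for H1-5 (-0.66, adjusted p = 0.00062), HEXIM1 (-0.71, adjusted p = 0.00374) and H2BC17 (-0.69, adjusted p = 0.0164). The groups at the 2 atirmociclib doses did not overlap for any of these 6 genes. AMD1 was listed at 16112, 16703 and 17229.5 and then at 19596, 19638 and 19436, and MYNN at 1064, 1059 and 1182 and then at 1547, 1472 and 1499. Their calls of a difference were each kept in 1 of the 6 fits that left out 1 library. That of H2BC17 was lost without replicate 2 of 1 µM and without replicate 1 of 2 µM, and that of LCP1 without the latter (adjusted p = 0.051, difference 0.41).

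Against 24 h, the step at 72 h was higher by 0.52 for LCP1 (adjusted p = 4.48e-05), by 0.45 for ACSL3 (adjusted p = 0.0201) and by 0.30 for DSC2, a desmosomal cadherin (adjusted p = 0.0213). It was lower for PTTG1 (-0.94, adjusted p = 0.00696), MYBL2 (-0.55, adjusted p = 0.032) and ENSG00000273162 (-2.16, adjusted p = 0.0338), the last at levels of 13.8, 8.79 and 15.3 and 8.95, 9.63 and 6.42 normalised counts at 72 h, near the limit of what can be measured. DSC2 was listed at 9059.5, 9265 and 9117 and then at 11230.5, 10639 and 10688. Those of ACSL3 and DSC2 were lost without replicate 1 of either dose, and that of MYBL2 also without replicate 3 of 2 µM. That of ENSG00000273162 was lost without replicate 1 or 3 of either dose, and its step at 72 h was not called (-0.53, adjusted p = 0.442). Differences for LCP1 and PTTG1 between times, and for H1-5 and HEXIM1 between compounds, were kept in all 17 alternatives tried for each. Groups of 3 were too small for a test of single libraries, so ID1 and ID3 in replicate 1 of the higher dose are given in the text as values only.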

How the results depend on the processing

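None of the 82 called genes that the naming rule picked changed direction under any alternative tried, and 25 were called under every alternative and 29 without each library in turn. The replicate block gave 157 genes higher and 129 lower, 16 of the 82 named calls were lost, and differences of steps past the threshold were 15 between times and 19 between compounds. With GC content and gene length corrected, 325 genes were higher, 8 at least 2-fold, and 9 and 13 genes differed between times and compounds, or 8 and 14 with the block as well. Without a filter, 125 were higher, 13 at least 2-fold, and 7 differed between times. With a mean of at least 100, 2 genes were at least 2-fold lower. Quantile normalisation gave 85 higher and 4 at least 2-fold lower, and equal totals 87 higher. Without the trend, 93 were higher, 5 at least 2-fold lower, and 14 and 3 differed between times and compounds. The 6 atirmociclib libraries alone gave 103 higher and 78 lower, 8 and 6 at least 2-fold, and all 36 libraries 360 higher, 8 at least 2-fold. The causes were not tested.

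Leaving out 1 library gave 45 to 128 genes higher, 64 to 139 lower, 2 to 11 and 1 to 20 at least 2-fold higher and lower, 2 to 26 differing between times and 2 to 21 between compounds. The excess at 2 µM was 531734 to 607830 normalised counts in total and 0.367 to 0.578 percentage points in mitochondrial share, and the change in genes above 0 was -506.7 to -189.2. Summing H4C14 and H4C15 gave 154 genes lower. Depth limits low genes most: of the 3269 genes with the lowest levels, 1 was called higher and 5 lower.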
